A study of Danio rerio with 4 samples.

Results

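The heat shock chaperones described here are proteins that fold other proteins, named for their induction by heat. Hsp70 proteins bind unfolded stretches of a client and pass it to Hsp90, which holds it in a near-folded state, and co-chaperones such as Aha1 and Hop set the pace of Hsp90 or link it to Hsp70. Some members are made in all growing cells and others are switched on through heat shock factors when unfolded protein builds up. The genes were listed by name: hsp90aa1.1, hsp90aa1.2, hsp90ab1, hspa8, hsp70l, hspa4a, ahsa1a, stip1, hspd1 and hspe1. They were chosen by family and with the measured log2 differences between glucose-treated and control embryos already known, so those differences and their p-values are given for them as a description and support nothing further. A probe set (the short probes that together measure a transcript) was taken where its only platform gene symbol was one of the 10 names, which gave 10 probe sets for 8 of the 10 genes, out of 15617 on the array. The genes hspa8, hsp90aa1.1, hspa4a, ahsa1a, hspd1 and hspe1 had 1 probe set each, and hsp90aa1.2 and hsp90ab1 had 2 each. The gene hsp70l, a heat-inducible Hsp70, is listed only on a probe set shared with its near copies, and stip1, which codes for Hop, has no probe set under its name. The label "cytosolic" holds for 8 of the 10 listed genes, since the products of hspd1 and hspe1, Hsp60 and Hsp10, are known as the chaperonin of the mitochondrial matrix.

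RNA came from entire zebrafish embryos 36 hours after fertilisation (hpf), 2 glucose-treated samples raised in 1% glucose in E3 embryo medium starting at 12 hpf and 2 control samples, with an incubation temperature of 28C for all 4. Each sample was hybridised to 1 Affymetrix array. No strain, genotype or number of embryos per sample is given in the sources used here. Nothing says whether the biological replicates came from separate clutches, so p-values measure only the spread between these samples. The test used below, limma, takes part of that spread from the other probe sets. Because whole embryos were used, a difference in cell numbers and a difference in RNA per cell cannot be told apart.

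The median intensity was 171 and 175 on the glucose arrays, against 171 and 174 on the control arrays, and 58.4% to 59.3% of probe sets lay above 117.7, the brightest of 17 tag probe sets that have no target in fish. Marker genes of skeletal muscle, lens, red blood cells, neural tissue, epidermis and notochord that had a probe set were all above that level on all 4 arrays. The array values are intensities of separate probe sets, so levels are compared between arrays and never between genes.

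Of the chaperone probe sets tested, only that of ahsa1a passed the test described below. For the others no difference was called, which with 2 arrays per group does not show that they were unchanged. The only probe set for hsp70l, shared with its near copies, had a log2 difference of 0.54 and did not pass. The product of ahsa1a, Aha1, stimulates the ATPase cycle of Hsp90. The probe set of ahsa1a read 358 and 290 on the glucose arrays, against 140.1 and 136.8 on the control arrays. Both glucose arrays lay above both control arrays, by more than the gap within either pair. The fold difference was 2.33, with a 95% interval of 1.73 to 3.13 (log2 difference 1.22, standard error 0.20, n = 2 per group), in limma with a variance that follows intensity (intensity trend), where the p-value adjusted over all 13628 probe sets tested was 0.00402. In limma without that trend the adjusted p of ahsa1a was 0.411. Without the trend 0 of 13628 probe sets passed the threshold of 0.10, and 1152 had an unadjusted p under 0.05. In limma with the trend an unadjusted p of 0.048 had rank 1525 among the 13628. The counts under 0.05 given below for lists and markers are therefore description only. The mean intensity of ahsa1a was 324 ± 48.1 in glucose and 138 ± 2.32 in control (SD, n = 2 each), so its control values lie only a little above the brightest tag probe set. The log2 difference was between 1.07 and 1.37 when 1 array at a time was left out.

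Of the 10 chaperone probe sets, 9 passed the filter on dim values (a log2 intensity of at least 5 on at least 2 of the 4 arrays). With the intensity trend and an adjusted p under 0.10, 1 of these 9, ahsa1a, was called higher in glucose and 0 were called lower. Over all probe sets tested, 1.29% were called higher and 0.712% lower, and nothing is read from the members' count because the members were chosen with this comparison known. None of the 8 other tested probe sets had an unadjusted p under 0.05, either with the trend or without it, and their adjusted p with the trend was between 0.525 and 0.967. The 9 tested probe sets had a median log2 difference of 0.073, against 0.0015 over all probe sets tested. Of the 9, 7 were higher and 2 lower, where 50.2% of all probe sets tested were higher. Without glucose replicate 1 the members' median was -0.009, and without control replicate 2 it was 0.122. The groups did not overlap for 3 probe sets that were higher in glucose (ahsa1a, hspd1 and hspe1) and 1 that was lower (hspa4a), where 20.7% and 20.3% of all probe sets tested had groups apart in these directions.

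**Figure D1:**
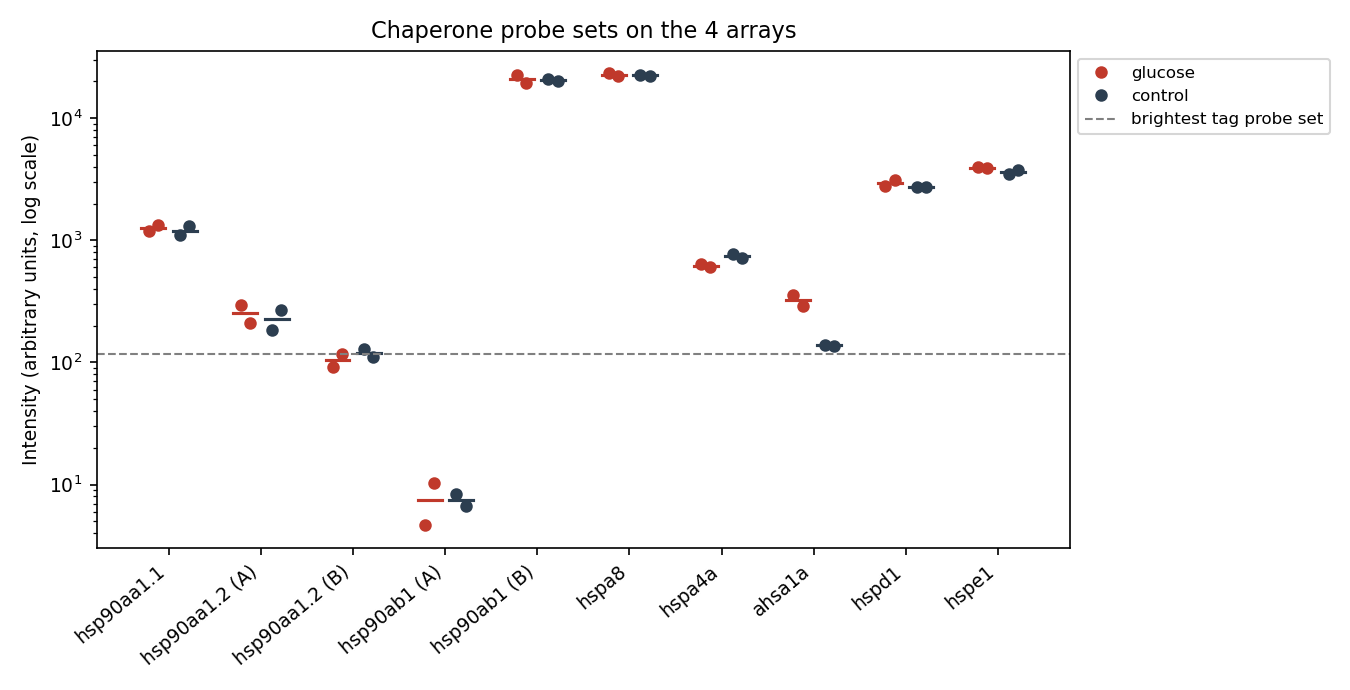
Intensity (arbitrary units, log axis) of the 10 chaperone probe sets on the glucose arrays (red, left of each pair) and the control arrays (dark, right), with a bar at each group's mean; the dashed line is the brightest tag probe set. The pairs of ahsa1a are apart at 358 and 290 against 140.1 and 136.8, and those of hspa8 and the brighter hsp90ab1 probe set lie on each other; (A) and (B) mark the 2 probe sets of a gene.

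In zebrafish hsp90ab1 is the constitutive cytosolic form, and hsp90aa1.1 is known for its role in developing muscle, where it helps myosin fold. The gene hsp90aa1.2 is its neighbour in the RefSeq gene order of assembly GRCz12tu. On the brighter hsp90ab1 probe set the intensity was 22576 and 19597 in glucose, against 20968 and 20150 in control. The control values lay between the glucose values. The fold difference was 1.02, with a 95% interval of 0.891 to 1.17. The other hsp90ab1 probe set read 4.67 and 10.2 in glucose, against 8.40 and 6.64 in control, far below the tag level on all 4 arrays, and it was not tested.

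For hsp90aa1.1 the intensity was 1196 and 1327 in glucose, against 1098 and 1306 in control. The groups overlapped, and the log2 difference of 0.073 (standard error 0.14) turned to -0.052 without control replicate 1 and to -0.0019 without glucose replicate 2. Of 12 listed markers of skeletal muscle, 9 had a probe set and 0 passed the test, with 1 at an unadjusted p under 0.05 (median log2 difference -0.0028), and their summed intensity was 293050 and 281826 in glucose, against 299432 and 280507 in control.

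The 2 probe sets of hsp90aa1.2 went opposite ways. The first read 298 and 212 in glucose, against 183 and 269 in control, which is 0.18 on the log2 scale (standard error 0.23). The second read 91.9 and 118 in glucose, against 128 and 111 in control, which is -0.19 (standard error 0.28). Both overlapped between the groups, and the second lay at or below the tag level on 2 of the 4 arrays, so neither a rise nor a fall of hsp90aa1.2 was detectable. A further probe set, which the platform assigns to both hsp90aa1.2 and hsp90aa1.1, read 307 and 398 in glucose, against 267 and 357 in control, and overlapped as well. Its log2 difference was 0.18 with all 4 arrays, -0.030 without control replicate 1 and -0.0071 without glucose replicate 2.

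The Hsp70 side held the steadiest member. The constitutive Hsp70, hspa8, read 23323 and 22062 in glucose, against 22631 and 22212 in control. The control values again lay inside the glucose pair, and the fold difference was 1.01 with a 95% interval of 0.890 to 1.15. Its sign depended on single choices, with a log2 difference of 0.017 over the 4 arrays, -0.023 without glucose replicate 1 and -0.034 after quantile normalization. The gene hspa4a codes for a relative of Hsp70 that acts as its nucleotide exchange factor. It read 636 and 604 in glucose, against 773 and 717 in control, with the groups apart by more than the gap within either pair. Its fold difference was 0.833 with a 95% interval of 0.673 to 1.03 (unadjusted p = 0.0891 and adjusted p = 0.525, limma with the trend), so it was lower on both glucose arrays and did not pass.

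Heat-inducible Hsp70 transcripts could be seen only through probe sets that are not specific to hsp70l. The probe set shared by hsp70.1, hsp70l and hsp70.3 read 393 and 379 in glucose, against 286 and 246 in control. Both glucose arrays lay above both control arrays. The fold difference was 1.46 with a 95% interval of 1.12 to 1.89, and the shared probe set did not pass (unadjusted p = 0.00686 and adjusted p = 0.198, limma with the trend). A second probe set, assigned to hsp70.3 alone, read 364 and 334 in glucose, against 220 and 267 in control (log2 difference 0.52, standard error 0.18, adjusted p = 0.248). As these genes are near copies, both probe sets may bind the same transcripts and do not count as separate evidence. Without control replicate 1 the log2 difference was 0.65 for the shared probe set and 0.39 for the hsp70.3 probe set. Without control replicate 2 these were 0.43 and 0.66. For both probe sets, passing the threshold turned on which control array was left out. Embryonic zebrafish lens is a known site of hsp70l expression without heat. Of 8 listed lens markers 3 had a probe set and 0 passed. The 1 with an unadjusted p under 0.05 was cryaa, which is also in the small heat shock protein list. It read 391 and 364 in glucose, against 485 and 500 in control. The summed intensity of the 3 was 18357 and 17445 in glucose, against 18858 and 17246 in control, most of it from the brighter cryba4 and crybb1.

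The mitochondrial pair hspd1 and hspe1, which are neighbours in the RefSeq gene order of assembly GRCz12tu, did not pass. For hspd1, the Hsp60 barrel, the intensity was 2786 and 3129 in glucose, against 2713 and 2709.5 in control. For hspe1, the Hsp10 lid, it was 3981 and 3903 in glucose, against 3480 and 3743 in control. All glucose values lay above all control values for both genes. The fold differences were 1.09 for hspd1 (95% interval 0.921 to 1.29) and 1.09 for hspe1 (0.932 to 1.28), and neither passed (adjusted p = 0.752 for hspd1 and 0.723 for hspe1, limma with the trend). The log2 differences of hspd1 and hspe1 were 0.21 and 0.11 without glucose replicate 1, and 0.039 and 0.14 without glucose replicate 2.

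**Figure D2:**
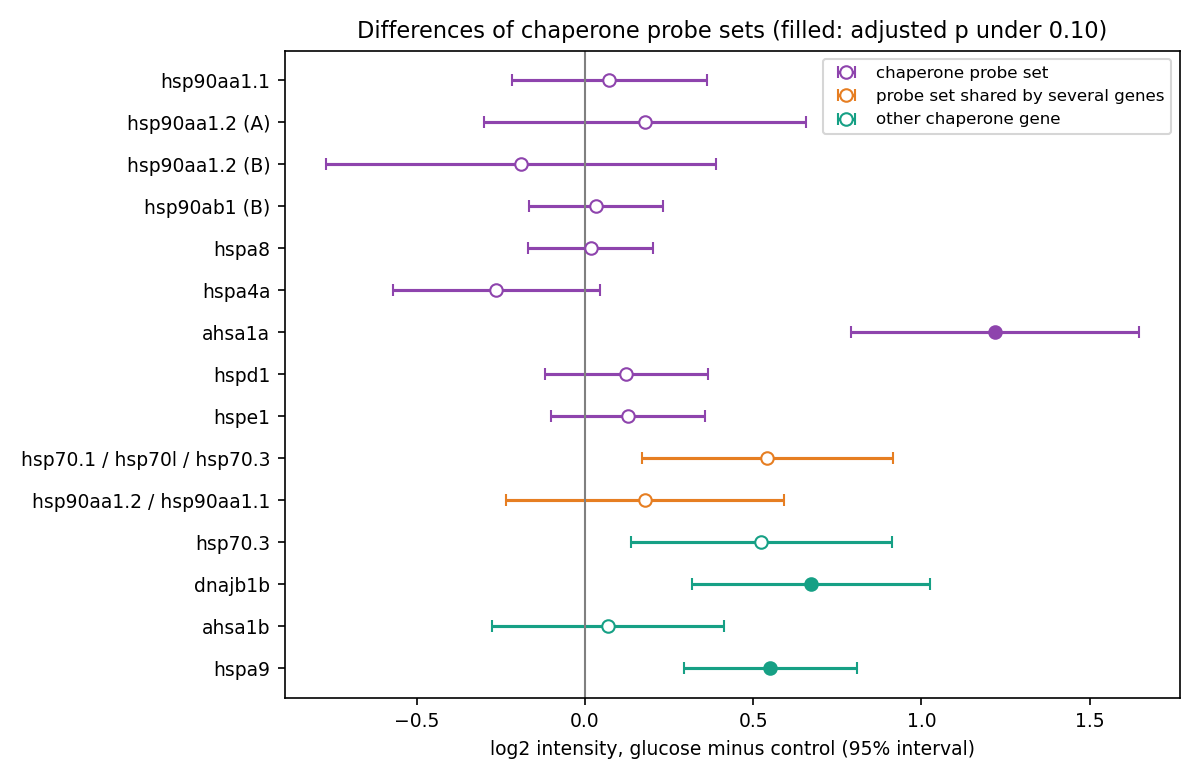
Difference in log2 intensity, glucose minus control, with its 95% interval from limma with the intensity trend. Drawn are the 9 tested chaperone probe sets (purple), the 2 probe sets shared by several genes (orange) and 4 other chaperone genes (green). The 4, ahsa1b, hsp70.3, dnajb1b and hspa9, are a selection, and all 4 were higher in glucose. Of the 89 tested genes of the other lists 41 were lower, and calr3b (-1.17), which was called lower, is not drawn. Filled points passed at an adjusted p under 0.10: ahsa1a at 1.22, dnajb1b at 0.67 and hspa9 at 0.55.

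Over all probe sets tested, the spread between replicates shrank with brightness. The median within-group SD was 0.53 log2 units for tested probe sets with a mean log2 intensity under 6, 0.23 between 6 and 8, 0.14 between 8 and 10, 0.10 between 10 and 12, and 0.087 at 12 and over. In limma with the trend, which makes the variance follow intensity, the brightest members, hsp90ab1 and hspa8, had standard errors of 0.095 and 0.088. The dimmest tested probe set, the second of hsp90aa1.2, had a standard error of 0.28. Without the trend these were 0.15, 0.14 and 0.20, and the brighter first hsp90aa1.2 probe set had 0.29. The standard errors without the trend thus did not simply follow brightness. They still take part of the spread from other probe sets, so they are not the members' own spread. The plot of difference against brightness shows ahsa1a at the upper edge of the probe sets of its brightness and the 8 others inside the cloud.

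**Figure D3:**
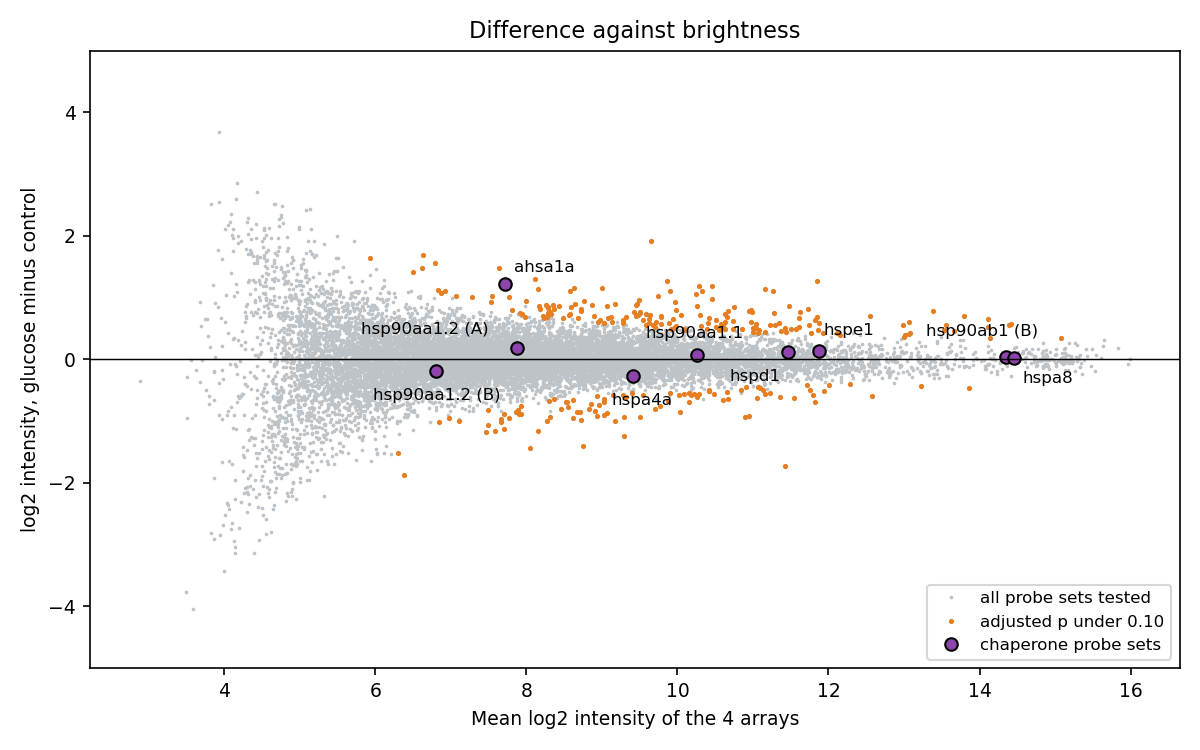
Difference in log2 intensity, glucose minus control, against the mean log2 intensity of the 4 arrays for all 13628 probe sets tested (grey), those with an adjusted p under 0.10 (orange) and the 9 tested chaperone probe sets (purple). The cloud narrows to the right; ahsa1a lies at 1.22 and the other chaperone probe sets lie between -0.26 and 0.18.

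Around these genes stand the co-chaperones, factors and chaperonins of other compartments, taken from 9 lists of 126 names. Of these, 90 had a probe set that the platform assigns to them alone, which does not exclude binding of near copies. On their brightest probe set 89 were tested. Of the 89 genes, 48 were higher in glucose and 41 lower, with a median log2 difference of 0.0091, where 50.2% of all probe sets tested were higher. The groups were apart for 14 genes that were higher and 24 that were lower. Over all probe sets tested 20.7% and 20.3% had groups apart in these directions. In limma with the trend 2 of them rose (2.25%, against 1.29% of all probe sets) and 1 fell (1.12%, against 0.712%). The genes that passed were dnajb1b and hspa9, which rose, and calr3b of the endoplasmic reticulum, which fell.

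The Hsp40 gene dnajb1b read 447 and 461 in glucose, against 278 and 292 in control. Its mammalian counterpart is a heat-inducible J protein that delivers clients to Hsp70. It rose by a log2 difference of 0.67 (standard error 0.17, adjusted p = 0.064, limma with the trend). The call was lost on leaving out either glucose replicate, without a filter (adjusted p = 0.109), at a threshold of 0.05 and without the trend (0.498). The difference stayed between 0.64 and 0.71. The other 11 tested Hsp40 genes gave no call. Among them dnaja2a, dnaja2b and dnajc7 had the smallest p-values, with log2 differences of -0.23, -0.20 and -0.21, none of which passed.

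Mitochondrial Hsp70, hspa9, works with hspd1 and hspe1 in the matrix. On its brighter probe set it read 3321 and 2752 in glucose, against 2062 and 2065 in control. It rose by 0.55 (standard error 0.12, adjusted p = 0.031, limma with the trend). The dimmer hspa9 probe set differed by 0.24 and did not pass (adjusted p = 0.66). The call was lost without glucose replicate 1 (0.42), on the mean of both probe sets (0.40, adjusted p = 0.211) and without the trend (adjusted p = 0.556). The other 9 tested mitochondrial chaperone and protease genes gave no call, and dnaja3b, grpel1 and dnaja3a, which code for J proteins and an exchange factor that serve hspa9, differed by -0.98, -0.33 and -0.25. The signal of dnaja3b lay below the tag level on all 4 arrays.

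Of 16 tested Hsp90 co-chaperone genes, 11 were higher and 5 lower, where 50.2% of all probe sets tested were higher. In limma with the trend 0 passed in either direction, nor did any have an unadjusted p under 0.05. The other Aha1 gene, ahsa1b (named after its values were seen), read 489 and 421 in glucose, against 439 and 425 in control. It differed by 0.070 (standard error 0.16) over the 4 arrays and by -0.038 without glucose replicate 1, against 1.22 for ahsa1a, and the difference between the copies was not tested. The members of smallest p were the immunophilin fkbp5 (0.24, adjusted p = 0.519), tsc1a (0.32, adjusted p = 0.582) and ptges3b, a form of p23 (-0.20, adjusted p = 0.681). The Hsp70 exchange factors and helpers, with 9 tested genes, gave 0 calls, also with 0 at an unadjusted p under 0.05. Their smallest p-values belonged to hspbp1 (0.37 on its brighter probe set), bag5 (-0.59, below the tag level on all 4 arrays) and bag4 (0.16). With 1 array at a time left out, these differences ranged from 0.094 to 0.65 for hspbp1, from -1.04 to -0.14 for bag5 and from 0.068 to 0.25 for bag4. The dimmer hspbp1 probe set, below the tag level on all 4 arrays, differed by 0.13 (standard error 0.37) and its groups overlapped.

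Of the 5 tested genes in the list of heat shock factors, which switch on the inducible chaperones, and their regulators, 0 passed in limma with the trend. The median log2 difference was -0.23. For hsf1 and hsbp1a both glucose values lay below both control values, as in 20.3% of all probe sets tested. For hsf2 (-0.016), hsf5 and hsbp1b the groups overlapped, and hsf5 lay below the tag level on all 4 arrays. The brighter probe set of hsf1, the main stress-responsive factor and the 1 gene of the list with an unadjusted p under 0.05, read 139.8 and 97.04 in glucose, against 181 and 213 in control. Its log2 difference was -0.75 (standard error 0.25, unadjusted p = 0.00681, adjusted p = 0.198, limma with the trend), and 1 of the 4 arrays lay below the tag level. For hsf1 the call turned on single arrays. It passed without control replicate 1 (-0.87, adjusted p = 0.0899) and without glucose replicate 1 (-1.02, adjusted p = 0.0809), and it did not pass without control replicate 2 (-0.63, adjusted p = 0.271) or without glucose replicate 2 (-0.49, adjusted p = 0.730). The dimmer hsf1 probe set was below the tag level on all 4 arrays. The heat shock factor binding proteins hsbp1a and hsbp1b differed by -0.23 and -0.18 (adjusted p = 0.537 and 0.647).

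The remaining cytosolic lists gave 0 calls each in limma with the trend. At an unadjusted p under 0.05 there was 1 gene among the relatives of Hsp70, 1 among the small heat shock proteins and 2 in the chaperonin list. Among 7 tested relatives of Hsp70 and Hsp110, hspa4b, of the same exchange factor family as hspa4a, differed by 0.13, and hspa4l by -0.17, which became 0.16 without control replicate 1. In the small heat shock protein list hspb1 read 982 and 873 in glucose, against 825 and 674 in control (log2 difference 0.31, adjusted p = 0.443), while the lens chaperone cryaa (-0.39) and hspb6 (-0.45) had lower values on both glucose arrays. The TRiC chaperonin, which folds actin and tubulin, and its partner prefoldin had 13 tested genes, with a median difference of 0.061. The TRiC subunit cct6a read 9121 and 7849 in glucose, against 6711 and 7212 in control (log2 difference 0.28, adjusted p = 0.288). It differed by 0.33 without control replicate 2 and by 0.17 without glucose replicate 1. The prefoldin subunits pfdn5 and pfdn4 differed by -0.27 and -0.21 and did not pass. Without control replicate 1 they differed by -0.40 and -0.37, and without control replicate 2 by -0.14 and -0.049.

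**Figure D4:**
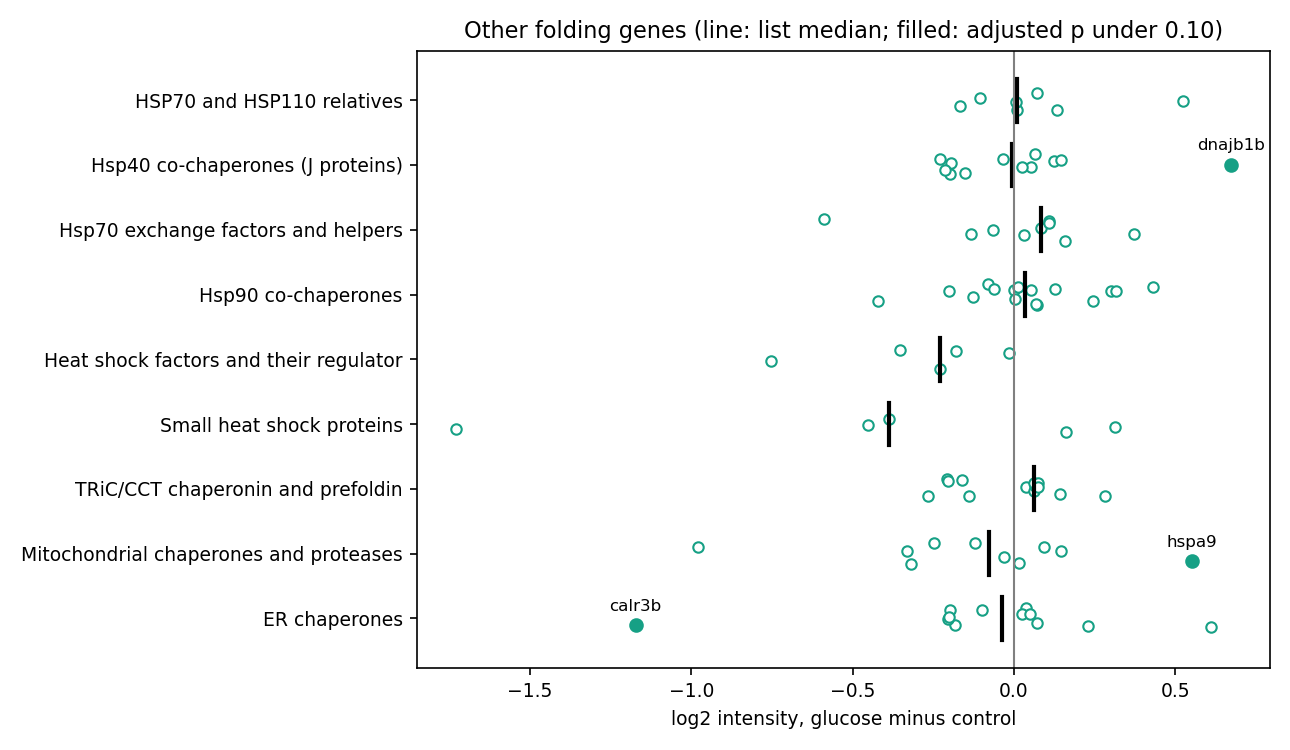
Difference in log2 intensity, glucose minus control, of the 89 tested genes of 9 lists, 1 point per gene on its brightest probe set, with a black line at each list's median. Filled points passed at an adjusted p under 0.10 (dnajb1b, hspa9 and calr3b), and the list medians lie between -0.39 and 0.082.

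Among the markers of other cell types, those of red blood cells had more than 1 call. Of 6 listed red blood cell markers, 4 had a probe set, all 4 had groups apart and higher in glucose (20.7% of all probe sets tested), and 3 rose (hbbe2, alas2 and slc4a1a), where 1.29% of all probe sets were called higher. Their summed intensity was 56765 and 53551 in glucose, against 45717 and 42290 in control. Most of that sum was hbae3, the 1 not called, at 45442 and 42001 in glucose, against 38543 and 35559 in control (fold difference 1.18). The 3 called had fold differences of 1.63, 1.62 and 1.73. Their adjusted p was 0.0025, 0.0142 and 0.00406 in limma with the trend, and 0.508, 0.494 and 0.520 without it. The sums of the other marker lists are likewise weighted toward their brightest probe sets. Of 5 epidermal markers 1, cldnb, fell (0.712% of all probe sets were called lower), with an adjusted p of 0.0885 in limma with the trend and 0.574 without it. All 5 were lower in glucose and 3 had groups apart, with sums of 71160 and 69725 in glucose, against 79845 and 71638 in control. The neural markers had 5 of 6 lower, all 5 with groups apart, and 0 called (2 at an unadjusted p under 0.05). Their sums were 18303 and 17601 in glucose, against 19660 and 19803 in control. Over all probe sets tested 50.2% were higher, and 20.3% had groups apart and lower. The notochord markers, 3 of 4 with a probe set, had 0 calls (1 at an unadjusted p under 0.05) and sums of 11530 and 10783 in glucose, against 9714 and 9958 in control. The part of these cell types in the values of ahsa1a, dnajb1b, hspa9 and the Hsp70 probe sets was not tested.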

How the data were processed

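The deposited table gives 1 linear intensity per probe set and array. GCRMA is named, per the submitters' processing notes, but its version is not given, and the deposited intensity values have a trimmed mean (2% off each end) of 500.2 on every array. Which method made them, and whether background was subtracted, is unknown. Dim probe sets are noisy, which inflates their fold differences. Control probe sets (115) were left out, log2 was taken, and 13628 probe sets that passed the filter were fitted in limma 3.58.1 under R 4.3.3 (lmFit, eBayes with intensity trend, 2 residual degrees of freedom, Benjamini-Hochberg adjustment, threshold 0.10). The number of arrays limits the precision.

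Genes come from the platform annotation (10795 probe sets with 1 symbol, 135 with several). RefSeq GRCz12tu served for names and neighbours. The members, lists, fit and naming rule were chosen with earlier results of these data known. The rule named all members and, per list, each gene called and up to 3 more of smallest p. The code was tested on simulated data. Plots used matplotlib 3.10.9 in Python 3.11.15. The 13 alternatives left out each array, or changed the block, variance prior, scaling, filter, threshold or probe set averaging.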

Additional observations from a re-analysis of the deposited data

How the results depend on the processing

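Over the 13 other settings, ahsa1a was called higher in 12 and no chaperone probe set was called lower in any (limma). Leaving out 1 array at a time gave 1 member called higher and 0 lower each time, 88 to 578 probe sets of the whole array called higher, 59 to 356 called lower, and a member median of -0.0090 to 0.12. Without the intensity trend the counts were 0 higher and 0 lower over the array and 0 higher among the members. Without a filter they were 116 and 57 over the array, and at a threshold of 0.05 they were 110 and 51. With 1 array left out, a lone array is assumed to vary like the other group. Some genes not called on all 4 arrays passed when a certain control array was left out. These were hsf1, the shared Hsp70 probe set, hsp70.3, cct6a, pfdn5, pfdn4 and dnajb11, and nothing is read from those calls. Signs turned in these ranges for hsp90aa1.1 (-0.052 to 0.20), the first hsp90aa1.2 probe set (-0.10 to 0.46), hsp90ab1 (-0.069 to 0.14), hspa8 (-0.023 to 0.057), the probe set shared by hsp90aa1.2 and hsp90aa1.1 (-0.030 to 0.39), hspa4l (-0.50 to 0.16) and ahsa1b (-0.038 to 0.18). Signs also turned for hspa8 after quantile normalization (-0.034) and for the first hsp90aa1.2 probe set on the mean of a gene's probe sets (-0.0061). The causes were not tested. Replicate numbers are shared between the groups, but no label says they mark a pair. With the replicate number as a block, 188 probe sets were called higher and 113 lower, 1 member higher and 0 lower, and the member median was 0.073. Deviations of same-numbered arrays correlated at -0.023 across probe sets. For the brighter hsp90ab1 probe set, hspa8, hsp90aa1.1, hspd1 and hspe1 the signal stood far above the tag level. Low signal limits the second hsp90aa1.2 probe set and the control values of ahsa1a. The first hsp90aa1.2 probe set lay above the tag level on all 4 arrays, with replicates 0.49 log2 units apart in glucose and 0.56 in control.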

Other observations

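Chaperones of the endoplasmic reticulum lay beside the cytosolic ones without moving one way. Of 12 tested genes, which include the transcription factor gene xbp1 (higher, groups apart), 6 were higher and 6 lower in glucose. The median log2 difference was -0.038. The groups were apart for 3 that were higher and 5 that were lower, against 20.7% and 20.3% of all probe sets tested. In limma with the trend 0 were called higher and 1 lower, where 1.29% and 0.712% of all probe sets were. The calreticulin gene calr3b read 110.4 and 126 in glucose, against 268 and 263 in control, a log2 difference of -1.17, and fell (limma with the trend, adjusted p = 0.00803; 0.375 without the trend). On glucose replicate 1 it lay below the tag level. The related calr3a differed by 0.024. The J protein gene dnajb11, a partner of the lumenal Hsp70, read 356 and 407 in glucose, against 260 and 239 in control. It did not pass (log2 difference 0.61, adjusted p = 0.132, limma with the trend). Its difference was 0.67 without control replicate 1 and 0.52 without glucose replicate 2. The lumenal Hsp70 itself, hspa5, differed by 0.23 and the lectin chaperone canx by -0.20, and neither passed (adjusted p = 0.526 and 0.502). The genes hsp90b1 and xbp1 differed by -0.18 and 0.051. The genes calr3a, hsp90b1 and xbp1 were named after their values were seen.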
